A study of Homo sapiens with 12 samples.

Results

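The BCL2 family regulators of apoptosis were described here as 10 genes, chosen by symbol out of 60660 genes listed in the tables. They were 3 pro-survival genes (BCL2, BCL2L1 and MCL1), 2 effector genes (BAX and BAK1) and 5 BH3-only genes (BCL2L11, BID, BAD, BIK and BMF). The mRNA was measured in 12 libraries of 2 established human PCa cell lines, with 3 libraries in each of 4 groups. LNCaP was derived from a PCa lymph node metastasis, and 22Rv1 from a xenograft that had regrown in castrated mice. Each line was transfected with the negative control oligo (NC-mimic) or with piR-4447944 mimic, a synthetic copy of a piRNA, which is a class of small RNA that binds PIWI proteins. All 4 groups were kept without androgen in 10% CS-FBS, a serum stripped of steroids with charcoal, so no library shows either line with androgen. The study states in general terms that its experiments were repeated, but the labels do not say whether the 3 libraries of a group came from separate cultures, so the p-values measure the spread between these libraries, which may be technical. The question of the design was which mRNAs follow the mimic under androgen deprivation. The study also measured apoptosis of cells transfected in this way, with other methods and in CS-FBS with enzalutamide, an androgen receptor antagonist. Enzalutamide is not named for these mRNA libraries, so the 2 sets of measurements may not share a condition.

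Proteins of the BCL2 family decide whether the outer membrane of the mitochondrion stays intact. BAX and BAK1 form the pores through which cytochrome c leaves, pro-survival proteins hold BAX and BAK1 and the BH3-only proteins, and BH3-only proteins carry stress signals to both. Cytochrome c then assembles APAF1 and CASP9 into the apoptosome, which starts the caspases. Much of this control lies in protein binding, phosphorylation and turnover, which mRNA does not show. In PCa, BCL2 is known as a gene of basal cells and of tumours that grow without androgen.

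The libraries held between 12161091 and 22179601 expected counts, the estimated reads per gene from RSEM. Levels are given in TPM, a share of all transcripts that is corrected for gene length and can be compared between genes. All 8 markers of luminal prostate cells averaged at least 1 TPM in each group, and the 3 basal markers summed to at most 1.05 TPM in any library. Marker levels also differed between the lines. The luminal markers summed to 4598 to 4986 TPM in LNCaP NC-mimic and 1495 to 1832 TPM in 22Rv1 NC-mimic, with KLK3 at means of 2043 and 49.6 TPM, and the 3 stromal markers, mostly COL1A1, summed to 30.0 to 40.0 and 6.01 to 12.5 TPM. One library, 22Rv1 piR-4447944 mimic replicate 3, stood apart. The 13 mitochondrial protein genes took 3.57% of its TPM, against 7.79 to 11.2% in the other libraries, and 5 proliferation genes summed to 274.52 TPM there, against 622 to 893 TPM in the other 22Rv1 libraries. 22Rv1 NC-mimic replicate 3, which is in the line contrast, also differed from its group, though less. Its chi-square per gene, a measure of the difference in counts, was 44.5 and 37.7 against replicates 1 and 2, which stood at 8.40 to each other. It held the fewest counts, and its proliferation genes had the lowest sum of the NC-mimic libraries of 22Rv1, 622.42 TPM. The part of these markers, genes and libraries in the results was not tested. Values without replicate 3 of 22Rv1 are given below where it changed a call or a direction or moved a fold by about 1.5 times or more. For the lists of related genes this was done in the NC-mimic libraries only.

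All 10 genes were measured in all 12 libraries, with at least 72 expected counts in each, and all 10 passed the filter on low counts in every comparison. Together they took 0.0412 to 0.0588% of the TPM of a library. MCL1 had the highest mean in each group and BCL2 the lowest. Since these are bulk libraries, fewer cells with an mRNA and less of it per cell cannot be told apart.

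MCL1, a short-lived pro-survival protein, lies at chr1:150560895-150579738 (hg38, minus strand, ENSG00000143384.14). Its level was 120.02, 115.65 and 137.81 TPM in LNCaP NC-mimic, and 138.88, 124.08 and 131.76 TPM in 22Rv1 NC-mimic. With piR-4447944 mimic it was 112.48, 121.49 and 140.35 TPM in LNCaP, and 144.21, 146.10 and 169.64 TPM in 22Rv1. The LNCaP groups overlapped, and the 3 mimic libraries of 22Rv1 all lay above its 3 NC-mimic libraries. BCL2L1, whose main product BCL-XL guards the mitochondrial membrane, lies at chr20:31664452-31723989 (minus strand, ENSG00000171552.14). It stood at 58.57, 53.16 and 53.79 TPM in LNCaP NC-mimic and at 56.40, 55.77 and 52.63 TPM in LNCaP piR-4447944 mimic. In 22Rv1 it stood at 23.25, 22.00 and 22.59 TPM with NC-mimic, against 22.09, 22.36 and 33.37 TPM with the piR-4447944 mimic. Every LNCaP library was above every 22Rv1 library, and the single high value of 22Rv1 came from the library that stood apart. BCL2, the founding member of the family, lies at chr18:63123346-63320128 (minus strand, ENSG00000171791.14). It was listed at 1.50, 1.29 and 1.49 TPM in LNCaP NC-mimic and at 1.45, 1.15 and 1.54 TPM in LNCaP piR-4447944 mimic. The 22Rv1 libraries gave 3.18, 3.31 and 1.83 TPM with NC-mimic, against 3.58, 3.59 and 2.08 TPM with piR-4447944 mimic. The lowest 22Rv1 library was still above the highest LNCaP library, and replicate 3 was the low one in both 22Rv1 groups. These levels rest on 90 to 121 counts per library in LNCaP and 99 to 333 in 22Rv1.

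Among the effectors, BAX was several times as high as BAK1. BAX, which moves from the cytosol to the mitochondrion when activated, lies at chr19:48954815-48961798 (plus strand, ENSG00000087088.21). Its level was 79.04, 81.75 and 110.13 TPM in LNCaP NC-mimic, and 102.12, 141.26 and 126.70 TPM in 22Rv1 NC-mimic. With piR-4447944 mimic it was 102.59, 101.50 and 82.30 TPM in LNCaP, and 122.65, 113.57 and 171.01 TPM in 22Rv1. The mimic and NC-mimic libraries overlapped within each line, and the NC-mimic libraries of the 2 lines overlapped by 1 LNCaP value. BAK1, which resides in the mitochondrial membrane, lies at chr6:33572547-33580293 (minus strand, ENSG00000030110.14). It was between 15.70 and 24.61 TPM in LNCaP and between 11.51 and 17.61 TPM in 22Rv1. LNCaP NC-mimic replicate 2 had the lowest BAK1 of its line. Per library, the ratio of BAX to BAK1 TPM had medians of 4.48 (NC-mimic) and 4.95 (piR-4447944 mimic) in LNCaP, and of 8.32 and 9.63 in 22Rv1.

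The coding sequence of BAX holds a run of 8 G, the longest run of a single base in the coding sequences of the 10 genes, where the others reach between 4 and 7. Such runs are known sites of frameshifts in tumours that lack mismatch repair, so a count of BAX mRNA does not say that its reading frame is whole, and the frame was not analysed here. The run covers coding bases 114 to 121, in exon 3 of 6, and is shown in capitals within the reference sequence at chr19:48955703-48955732 on the plus strand of hg38, because it limits what the BAX values stand for:
BAX: gcagggcgaatGGGGGGGGaggcacccgag

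The BH3-only genes covered a wide span. BAD, held inactive by phosphorylation from survival kinases, lies at chr11:64269830-64284704 (minus strand, ENSG00000002330.14) and was between 89.48 and 122.27 TPM in all libraries. BID, which caspase-8 cuts to link death receptors to the mitochondrion, lies at chr22:17734138-17774770 (minus strand, ENSG00000015475.19). It was at 25.10, 20.76 and 25.07 TPM in LNCaP NC-mimic and at 5.93, 10.33 and 4.65 TPM in 22Rv1 NC-mimic. Its mimic libraries gave 22.32, 22.08 and 26.60 TPM in LNCaP and 8.06, 7.21 and 6.39 TPM in 22Rv1, so the lines did not overlap and the mimic groups did within each line. BCL2L11, which encodes BIM, a binder of all pro-survival proteins, lies at chr2:111119378-111168444 (plus strand, ENSG00000153094.25). It was at 16.92, 18.36 and 14.17 TPM in LNCaP NC-mimic and at 7.96, 8.48 and 7.71 TPM in 22Rv1 NC-mimic. With piR-4447944 mimic it was at 18.75, 20.32 and 16.19 TPM in LNCaP and at 8.69, 8.32 and 15.64 TPM in 22Rv1, where replicate 3 alone reached the LNCaP range. BIK, a BH3-only protein of the endoplasmic reticulum, lies at chr22:43110750-43129712 (plus strand, ENSG00000100290.3). It was between 17.45 and 21.49 TPM in LNCaP and between 9.76 and 15.67 TPM in 22Rv1, without overlap. BMF, named as a BCL2 modifying factor and tied to the cytoskeleton, lies at chr15:40087890-40108892 (minus strand, ENSG00000104081.14). It was even in LNCaP, between 18.56 and 23.74 TPM. In 22Rv1 it was at 12.28, 8.50 and 28.11 TPM with NC-mimic, against 13.23, 9.48 and 42.44 TPM with piR-4447944 mimic. Replicates 1 and 2 of 22Rv1 lay below every LNCaP library, and replicate 3 lay above every LNCaP library, in both groups.

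**Figure D1:**
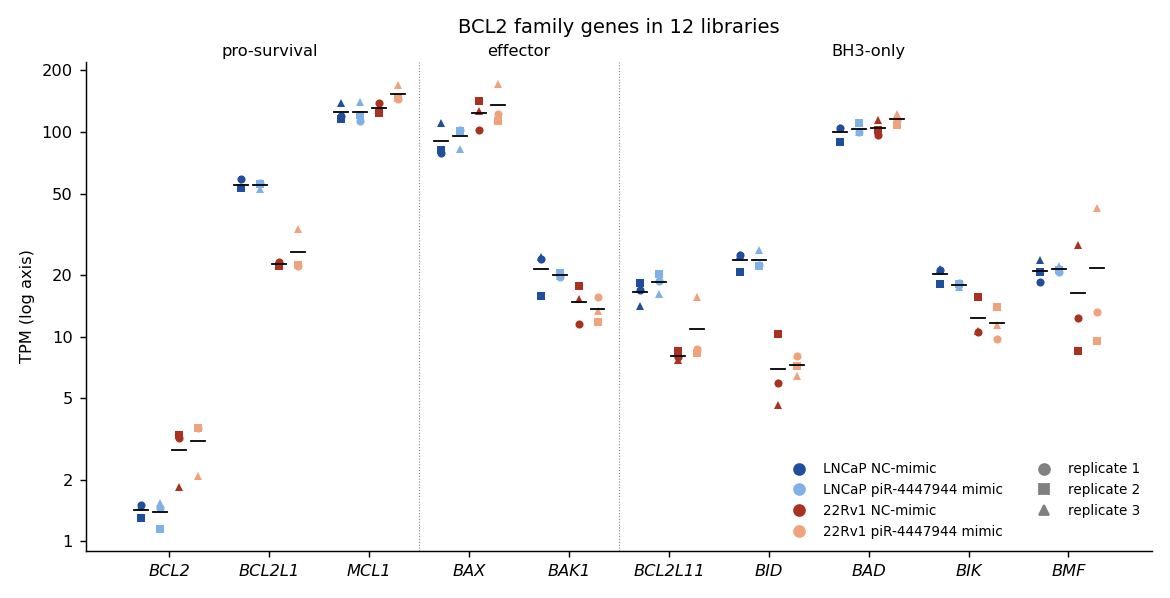
TPM of the 10 genes on a log axis, with 1 point per library (colour: group, shape: replicate) and a black line at the mean of each group. MCL1, BAX and BAD sit near or above 100 TPM, BCL2 sits between 1.15 and 3.59 TPM, and the 22Rv1 replicate 3 libraries are the highest BMF points.

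In order of mean level, LNCaP NC-mimic ran from MCL1 (124 ± 11.7 TPM, SD, n = 3) through BAD (99.5 ± 8.67), BAX (90.3 ± 17.2), BCL2L1 (55.2 ± 2.96), BID (23.6 ± 2.50), BAK1 (21.4 ± 4.93), BMF (21.0 ± 2.61), BIK (20.2 ± 1.92) and BCL2L11 (16.5 ± 2.13) to BCL2 (1.43 ± 0.118). BAD and BAX overlapped, and so did each neighbouring pair from BID to BCL2L11. In 22Rv1 NC-mimic the order was MCL1 (132 ± 7.40 TPM), BAX (123 ± 19.8), BAD (104 ± 8.68), BCL2L1 (22.6 ± 0.625), BMF (16.3 ± 10.4), BAK1 (14.8 ± 3.07), BIK (12.3 ± 2.93), BCL2L11 (8.05 ± 0.393), BID (6.97 ± 2.98) and BCL2 (2.77 ± 0.820). There the neighbours that did not overlap were BAD and BCL2L1, BIK and BCL2L11, and BID and BCL2. Of the 5 genes BID, BAK1, BMF, BIK and BCL2L11, BID had the highest mean in LNCaP and the lowest in 22Rv1, overlapping its neighbour in both. The summed TPM of the 3 pro-survival genes over that of the 7 pro-apoptotic genes was between 0.563 and 0.684 in LNCaP and between 0.491 and 0.669 in 22Rv1. MCL1 was 2.05 to 2.56 times BCL2L1 in LNCaP NC-mimic libraries and 5.64 to 5.97 times in those of 22Rv1.

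Between the lines, the clearest differences were lower BID, BCL2L1 and BCL2L11 in 22Rv1. Fitted log2 fold changes here are differences in normalized counts, not TPM, of 22Rv1 NC-mimic over LNCaP NC-mimic, from the quasi-likelihood test of edgeR, with p-values adjusted over 17497 genes by the Benjamini-Hochberg method. BID was 3.10-fold lower (log2 fold change -1.63 ± 0.198, SE, adjusted p = 0.000228). BCL2L1 was 2.41-fold lower (-1.27 ± 0.0997, adjusted p = 2.36e-05) and BCL2L11 was 2.04-fold lower (-1.03 ± 0.109, adjusted p = 0.000115). BIK was 1.58-fold lower (-0.66 ± 0.245, adjusted p = 0.0477). In the other direction, BCL2 was 1.97-fold higher (0.98 ± 0.284, adjusted p = 0.0175) and BAX 1.46-fold higher (0.55 ± 0.143, adjusted p = 0.0111). The remaining 4 genes did not pass, with log2 fold changes of 0.21 for MCL1 (95% interval 0.02 to 0.40, adjusted p = 0.0616), -0.47 for BAK1 (-1.005 to 0.066, adjusted p = 0.116), 0.09 for BAD (-0.17 to 0.35, adjusted p = 0.523) and -0.08 for BMF (-0.97 to 0.81, adjusted p = 0.869).

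So 6 of the 10 genes differed between the lines, 2 higher and 4 lower in 22Rv1. Of all genes tested 58.4% differed, 30.9% higher and 27.5% lower, so the count for the family is near that of all genes. Their median log2 fold change was -0.28, beside 0.01 over all genes. The TPM of 5 of the 10 genes did not overlap between the NC-mimic groups (BCL2 higher in 22Rv1, and BCL2L1, BCL2L11, BID and BIK lower), and 63.1% of all genes tested did not overlap. BCL2L1, BCL2L11 and BID passed in all 12 alternative fits, BAX in 9, BCL2 in 7 and BIK in 6. Without LNCaP NC-mimic replicate 1 only those 3 passed, and without 22Rv1 NC-mimic replicate 3 the count was 8, since BMF (-0.79, adjusted p = 5.86e-05) and MCL1 (0.20, adjusted p = 0.0479) then passed as well. The calls over all genes moved the same way, at 8453 of 18028 and 12117 of 18304 genes, beside 10226 of 17497 with all libraries.

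The same contrast was made in the 6 libraries with piR-4447944 mimic, which share no library with the first. There 8 of the 10 genes passed, 3 higher and 5 lower in 22Rv1, beside 52.4% of all 17283 genes tested. All 6 genes called in the NC-mimic libraries were called again with the same sign. The share of all genes called in both contrasts was not counted, so this recurrence is not a result particular to the family. Log2 fold changes were -1.45 ± 0.161 for BID (adjusted p = 0.000469), -1.11 ± 0.164 for BCL2L1 (adjusted p = 0.00154), -0.62 ± 0.181 for BCL2L11 (adjusted p = 0.0250) and 1.10 ± 0.258 for BCL2 (adjusted p = 0.0109), by edgeR. MCL1 (0.35, adjusted p = 0.0431) and BAK1 (-0.54, adjusted p = 0.0214) were called only there, and whether these contrasts differ is the test of the mimic between the lines, which called none of the 10 genes. BMF had the opposite sign, at 0.20 (adjusted p = 0.774), and was at -0.77 (adjusted p = 9.45e-06) without 22Rv1 replicate 3.

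**Figure D2:**
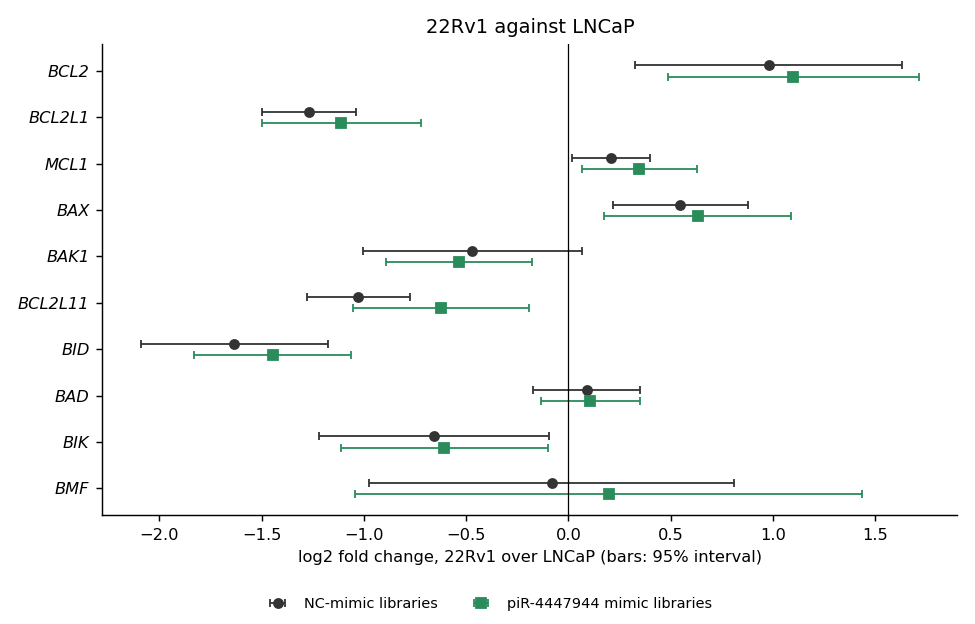
Log2 fold change of 22Rv1 over LNCaP for the 10 genes, with 95% intervals, in the 6 NC-mimic libraries (circles) and in the 6 piR-4447944 mimic libraries (squares). BID, BCL2L1 and BCL2L11 lie left of 0 and BCL2 and BAX right of it in both, and BMF has the widest intervals.

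Promoters were read for those of the 10 genes that had a window, and 3 windows of genes that differed between the lines are printed. RefSeq promoter windows of GRCh38.p14, from 250 bases before to 50 bases after a start, were given for 8 of the 10 genes, in 15 windows. MCL1 and BIK were not matched, and BAK1, BAD and BMF, which did not pass between the lines, are among the 8. The motifs searched on both strands were the E-box CACGTG, the forkhead motif GTAAACA, the GC box GGGCGG, the CCAAT box CCAAT and the AP-1 motif TGACTCA. The forkhead motif, which FOXO proteins bind, was in 1 of the 15 windows, that of BCL2L11, and in 3.42% of all 35116 windows. The E-box was in 3 of the 15 windows and in 7.26% of all, with 4 copies in the BAX window and the other two being BID windows that overlap and share their single copy. The GC box was in 11 of the 15 (45.0% of all), the CCAAT box in 6 (34.6%) and the AP-1 motif in 0 (4.95%). Windows of 1 gene can overlap, so the 15 are not separate sequences. The share of G and C was 48.7 to 78.0% in the 15 windows, beside a median of 58.7% over all windows, and the motif shares are not adjusted for it. The BCL2L1 window printed here held none of the 5 motifs, and the other BCL2L1 window (chr20:31722819-31723118) held 1 GC box. Windows of BID and BCL2, which also differed between the lines, are not printed. Capitals mark the motif matches. These are letters in the reference and not measured binding sites, and no match says only that these letters are not in the window. The windows are BCL2L11 at chr2:111120664-111120963 (plus strand), BAX at chr19:48954625-48954924 (plus strand) and BCL2L1 at chr20:31723914-31724213 (minus strand):
BCL2L11: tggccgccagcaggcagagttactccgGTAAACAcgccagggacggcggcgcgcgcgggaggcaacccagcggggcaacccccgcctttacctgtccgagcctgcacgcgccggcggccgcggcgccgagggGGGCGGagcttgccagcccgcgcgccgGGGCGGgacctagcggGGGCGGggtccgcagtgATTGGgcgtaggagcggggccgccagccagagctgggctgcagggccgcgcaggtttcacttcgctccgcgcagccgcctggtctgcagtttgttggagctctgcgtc
BAX: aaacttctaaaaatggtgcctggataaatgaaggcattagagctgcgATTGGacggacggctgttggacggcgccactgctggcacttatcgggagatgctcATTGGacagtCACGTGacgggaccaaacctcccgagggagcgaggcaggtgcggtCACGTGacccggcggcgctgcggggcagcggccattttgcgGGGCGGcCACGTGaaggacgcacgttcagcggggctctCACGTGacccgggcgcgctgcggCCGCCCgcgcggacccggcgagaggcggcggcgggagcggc
BCL2L1: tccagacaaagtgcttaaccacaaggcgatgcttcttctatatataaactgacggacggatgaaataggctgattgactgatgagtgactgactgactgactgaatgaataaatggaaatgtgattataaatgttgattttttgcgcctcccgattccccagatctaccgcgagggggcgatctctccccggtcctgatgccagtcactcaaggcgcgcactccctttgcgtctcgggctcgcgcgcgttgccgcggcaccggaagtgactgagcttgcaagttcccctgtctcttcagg

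In LNCaP, none of the 10 genes passed with piR-4447944 mimic. The log2 fold changes of mimic over NC-mimic were between -0.16 (BIK) and 0.07 (BAD), 4 above and 6 below 0, with a median of -0.05 beside 0.00 over all genes. The widest 95% interval was that of BCL2, from -0.46 to 0.31, and for BCL2L1, MCL1, BCL2L11 and BMF no interval reached below -0.24 or above 0.19. None passed the adjusted threshold in edgeR (adjusted p = 0.999 for each), none had an unadjusted p under 0.05, and DESeq2 and limma called 0 of the 10. Among all 16244 genes tested, edgeR called 0%, with 433 genes at an unadjusted p under 0.05, and DESeq2 called 2. The study called genes with a log2 fold change beyond 0.2 in size and a p, before adjustment, under 0.05, with p-values and shrunken fold changes from DESeq2. With the same thresholds on the edgeR estimates, which are not shrunken, 0 of the 10 genes and 2.22% of all genes passed, and with shrunken fold changes from DESeq2 0 of the 10 and 3 of all genes passed. BAK1 met these thresholds on the edgeR estimates only without LNCaP NC-mimic replicate 2, the library with the lowest BAK1, at a log2 fold change of -0.29. The TPM of mimic and NC-mimic libraries overlapped for each of the 10 genes, while 8.40% of all genes did not overlap.

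By role, the pro-survival genes in LNCaP were at log2 fold changes of -0.08 ± 0.178 (BCL2), 0.00 ± 0.0741 (BCL2L1) and 0.03 ± 0.0748 (MCL1). The effectors were at 0.04 ± 0.103 (BAX) and -0.10 ± 0.148 (BAK1). The BH3-only genes were at -0.06 ± 0.0801 (BCL2L11), -0.08 ± 0.100 (BID), 0.07 ± 0.0935 (BAD), -0.16 ± 0.140 (BIK) and -0.03 ± 0.0765 (BMF). Each role had estimates on both sides of 0, and each estimate but that of BIK was smaller than its standard error. The TPM of BCL2L11 moved the other way, from 16.5 ± 2.13 to 18.4 ± 2.08 (SD, n = 3), while the length that RSEM gave the gene was 4405 to 4766 bases in the NC-mimic libraries and 3579 to 4393 bases in the mimic libraries, and TPM divides by it.

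In 22Rv1 none of the 10 genes passed either, and the spread was larger. The biological coefficient of variation was 0.343 there and 0.0964 in LNCaP. The log2 fold changes ran from -0.19 ± 0.234 (BAK1) to 0.32 ± 0.196 (BCL2L11), 8 above and 2 below 0, with a median of 0.10 beside -0.01 over all genes. The pro-survival genes were at 0.03 ± 0.336 (BCL2), 0.14 ± 0.176 (BCL2L1) and 0.15 ± 0.121 (MCL1), and BAX was at 0.10 ± 0.205. Of the other BH3-only genes, BID was at 0.09 ± 0.269, BAD at 0.07 ± 0.123, BIK at -0.13 ± 0.303 and BMF at 0.21 ± 0.640, with a 95% interval from -1.29 to 1.71. With the replicate numbers as a block, BMF was at 0.11 ± 0.139, with an interval from -0.23 to 0.44, and BCL2 at 0.05 ± 0.194. Each adjusted p was 0.999 in edgeR, no unadjusted p was under 0.05, and DESeq2 and limma called 0 of the 10. Among all 16898 genes edgeR called 0%, with 250 at an unadjusted p under 0.05, and DESeq2 called 1. The thresholds of the study on the edgeR estimates passed 0 of the 10 and 1.48% of all genes, the same 250, and on shrunken DESeq2 fold changes they passed 0 of the 10 and 277 of all genes. MCL1 was the only gene of the 10 whose TPM did not overlap between the groups, which held for 8.81% of all genes tested.

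**Figure D3:**
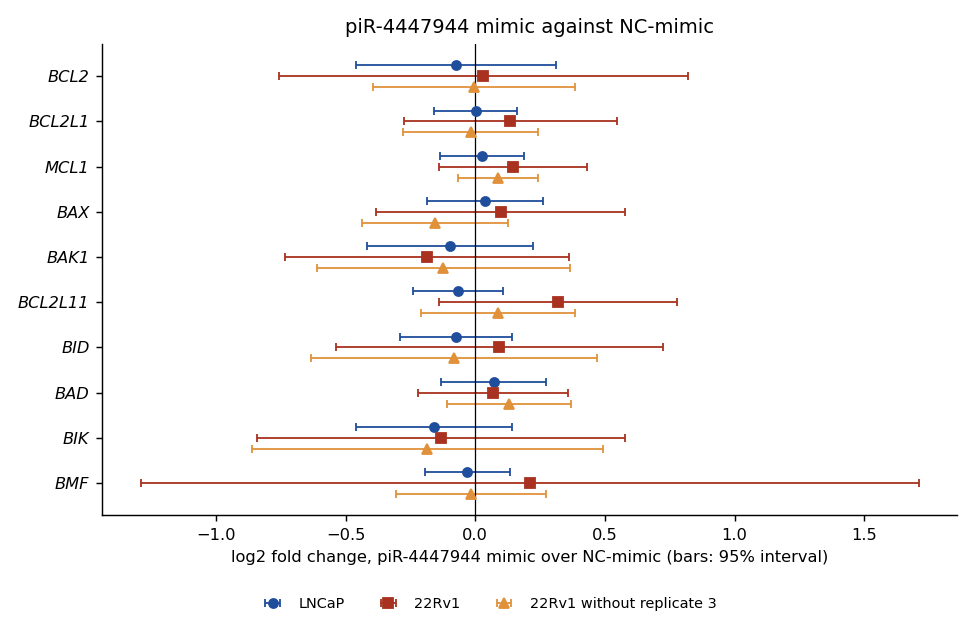
Log2 fold change of piR-4447944 mimic over NC-mimic for the 10 genes, with 95% intervals, in LNCaP (circles), in 22Rv1 (squares) and in 22Rv1 without its replicate 3 libraries (triangles). All 30 intervals cross 0, and that of BMF in 22Rv1, from -1.29 to 1.71, narrows to -0.30 to 0.27 without replicate 3.

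Several of the values in 22Rv1, but not all, turned on replicate 3. Levels per library were compared as log2 CPM, a count relative to its library total after scaling by TMM, the normalization used in the fits. In piR-4447944 mimic replicate 3, log2 CPM lay above NC-mimic replicate 3 by 0.73 for BCL2L11, 0.55 for BAX, 0.53 for BID, 0.41 for BCL2L1 and 0.37 for BMF. For replicates 1 and 2 the same differences were 0.03 and 0.13 for BCL2L11, 0.06 and -0.36 for BAX, -0.10 and -0.09 for BID, and -0.02 and -0.03 for BCL2L1. BAK1 differed more in replicates 1 and 2, by 0.43 and -0.66, than in replicate 3, at -0.28. Without both replicate 3 libraries, the log2 fold changes of mimic over NC-mimic were -0.02 for BCL2L1, -0.16 for BAX, -0.08 for BID, 0.09 for BCL2L11, -0.01 for BCL2 and -0.02 for BMF, and none passed. BAK1 (-0.12), BAD (0.13) and BIK (-0.18) kept the sign they had with all 22Rv1 libraries. For BMF, both replicate 3 libraries were high, at 1.03 for NC-mimic and 1.40 for piR-4447944 mimic above the NC-mimic mean of the line in log2 CPM. Leaving out the mimic one alone gave -0.73, and leaving out the NC-mimic one alone gave 0.92. MCL1 (by 0.02, 0.15 and 0.28) and BCL2L11 were higher with piR-4447944 mimic in 3 of 3 pairs of the same number. The share of all genes that did so was not counted, and the pairs rest on the replicate numbers only. The MCL1 estimate without replicate 3 was 0.09 ± 0.0705.

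**Figure D4:**
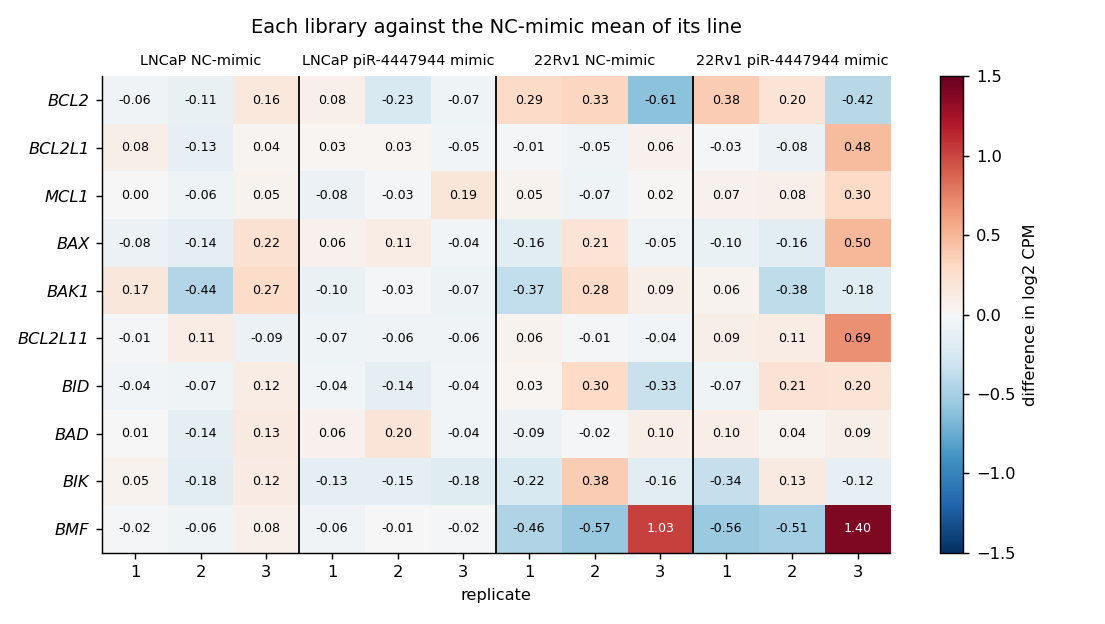
Each cell is the log2 CPM of a gene in a library minus the mean of the 3 NC-mimic libraries of the same line. LNCaP libraries lie between -0.44 and 0.27, both from BAK1, BMF is high in both 22Rv1 replicate 3 libraries (1.03 and 1.40), and BCL2L11 reaches 0.69 in the piR-4447944 mimic library of that number.

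The effect of the mimic was also compared between the lines, as an interaction over all 12 libraries. It called 0 of the 10 genes and 0% of 18720 genes in edgeR, with 0 of the 10 and 610 of all at an unadjusted p under 0.05, and DESeq2 called 0 of the 10 and 3 of all. The differences of the log2 fold changes (22Rv1 minus LNCaP) ran from -0.08 for BAK1 to 0.39 for BCL2L11. For BCL2L11 the 95% interval of the difference was -0.07 to 0.85, and for BMF it was -1.30 to 1.82.

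A piRNA can pair with mRNA through the bases near its 5′ end. The complement of positions 2 to 8 of piR-4447944, ATAGCTT, was in the 3′UTR of 0 of the 10 genes, taken from the canonical transcript of the hg38 annotation, and in 10.2% of 19218 such 3′UTRs. Longer 3′UTRs hold it more often. Among 3′UTRs within 20% of the length of that of BCL2 (5279 bases) 30.3% held it, and for BCL2L11 (4213 bases) and BMF (3897 bases) the shares were 25.8% and 23.8%, while for BAX (162 bases) it was 0.308%. Other ways of pairing were not searched.

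Other genes of the pathway were read from fixed lists, beside the same share of all genes (58.4% called between the lines). Of 11 other BCL2 family genes 7 were tested between the lines, and 3 were higher and 2 lower in 22Rv1, with a median of 0.10. The BH3-only gene BBC3, which encodes PUMA, was at a log2 fold change of 1.65 (adjusted p = 0.000160, edgeR) and BCL2L12 at 1.05 (adjusted p = 0.000486). HRK, another BH3-only gene, was at 3.48 (adjusted p = 0.0220), from 0.05 to 0.24 TPM in LNCaP NC-mimic and 0.38 to 4.16 TPM in 22Rv1 NC-mimic, and at 1.43 (adjusted p = 0.0536) without replicate 3. BOK, a relative of BAX and BAK1, was at -1.31 (adjusted p = 0.000325) and BCL2L13 at -0.50 (adjusted p = 0.00142).

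The 8 genes of caspases and the apoptosome were divided, with 3 higher, 2 lower and a median of 0.22. Higher in 22Rv1 were APAF1 (1.19), the scaffold of the apoptosome, CYCS (0.81), which encodes cytochrome c, and the executioner CASP6 (1.29). Lower were the death receptor caspases CASP8 (-1.87) and CASP10 (-2.53, and -3.55 without 22Rv1 replicate 3). CASP8 was between 17.90 and 20.58 TPM in LNCaP NC-mimic and between 3.82 and 7.91 TPM in 22Rv1 NC-mimic. CASP8, whose product cuts BID, and BID were thus both lower in 22Rv1. Of 7 caspase inhibitors and their antagonists 3 were higher and 3 lower, with a median of -0.14. BIRC3 was at -4.15, XIAP, the direct inhibitor of executioner caspases, at -0.78 and BIRC6 at -1.05, while the antagonists HTRA2 (1.33) and DIABLO (0.43) were higher, as was BIRC5 (0.77).

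Of 9 death receptor genes 8 were tested, with 2 higher, 3 lower and a median of -0.31. The TRAIL receptors TNFRSF10A (-0.72) and TNFRSF10B (-0.91, and -1.48 without 22Rv1 replicate 3) and the adaptor FADD (-0.64) were lower in 22Rv1, and RIPK1 (0.87) and TNFRSF1A (0.32) were higher. Among 9 regulators and partners 2 were higher and 4 lower, with a median of -0.27. FOXO3 (-2.07), a transcription factor for BCL2L11, was lower, and so were HUWE1 (-1.02), a ubiquitin ligase for MCL1, and VDAC1 (-0.93), a channel of the outer mitochondrial membrane. DDIT3 (1.52, and 0.94 without 22Rv1 replicate 3), a stress factor, and FBXW7 (0.57), another ubiquitin adaptor for MCL1, were higher. FOXO3 was at 41.70 to 49.21 TPM in LNCaP NC-mimic and 9.37 to 10.88 TPM in 22Rv1 NC-mimic. Of 5 proliferation genes 4 were higher in 22Rv1, led by PCNA (1.32), MKI67 (1.23) and TOP2A (1.07). Their part in the differences of the family was not tested. Without 22Rv1 NC-mimic replicate 3, the genes higher and lower in 22Rv1 numbered 2 and 2 in the other BCL2 family, 4 and 2 in caspases and apoptosome, 3 and 3 in caspase inhibitors, 2 and 4 of 9 tested in death receptor genes, 2 and 5 in regulators and partners, and 5 and 0 in proliferation. In that fit 12117 of all 18304 genes passed, beside 10226 of 17497 with all NC-mimic libraries. In the piR-4447944 mimic libraries of both lines, 0 of the 5 proliferation genes passed, at log2 fold changes from -0.15 (CCNB1) to 1.14 (PCNA). That contrast holds 22Rv1 replicate 3, where these genes summed to 274.52 TPM, against 866.29 and 878.56 TPM in replicates 1 and 2. In LNCaP with the mimic the sum was 379.52 to 456.23 TPM. The lists were not counted there without replicate 3. Of the other genes named here HRK (2.28, adjusted p = 0.0883, edgeR), CYCS (0.42, adjusted p = 0.0613), BIRC5 (0.50, adjusted p = 0.350) and TNFRSF10B (-0.73, adjusted p = 0.267) did not pass in that contrast. With the mimic, 0 genes of these 6 lists passed in either line or in the interaction. At an unadjusted p under 0.05 in edgeR there were 2 in LNCaP, 1 in 22Rv1 and 1 in the interaction, with 5 to 9 genes tested in each list. Over all genes there were 433 of 16244, 250 of 16898 and 610 of 18720.

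**Figure D5:**
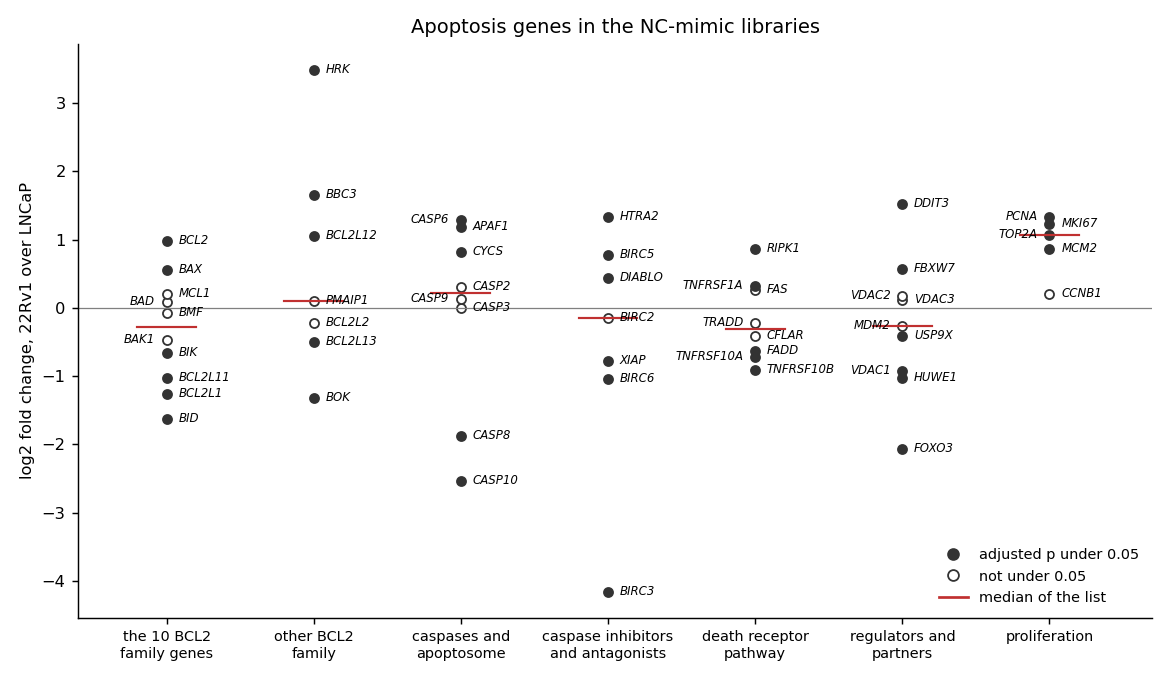
Log2 fold change of 22Rv1 NC-mimic over LNCaP NC-mimic for the 10 genes and 6 lists of related genes. Filled points had an adjusted p under 0.05 in edgeR and red lines are list medians, between -0.31 and 1.07, with genes on both sides of 0 in each list but proliferation.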

How the data were processed

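The authors aligned the mRNA reads to hg38 (STAR 2.7.1a), estimated gene levels (RSEM 1.3.0) and deposited 1 table per library. Expected counts, as the authors deposited them, are unnormalized estimates of the reads of a gene. The TPM the authors deposited divide by the effective gene length of each library and hold no depth. The common TPM table differed from the single tables by 0 at most. The deposited tables also list the gene length RSEM used, which moves with the transcripts it estimates. Annotation release, strand and trimming were not found in the sources used here.

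Expected counts were rounded and fitted with edgeR 4.0.16 in R 4.3.3 (TMM, filterByExpr, glmQLFit, glmQLFTest), with Benjamini-Hochberg adjustment over all genes of a fit. Each line was fitted apart for the mimic, the 6 NC-mimic libraries for the lines, and all 12 for the interaction. Standard errors come from the estimate and the test statistic, and 95% intervals from their t distribution. Alternatives were DESeq2 size factors, no low-count filter, DESeq2 1.42.0, limma 3.58.1 on log2(TPM + 1) for genes of at least 1 TPM in 3 libraries, a replicate block, all libraries in 1 fit, and leaving out each library or both 22Rv1 replicate 3 libraries. The line contrast in the mimic libraries was added after seeing the data. The fits were tested on simulated counts. Replicate pairs differed by a chi-square per gene of 3.43 to 106, above sampling noise.

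Deviations from group means correlated across genes between libraries of the same number by 0.198, 0.167 and 0.357 in 22Rv1. There, NC-mimic replicate 1 and piR-4447944 mimic replicate 2 correlated by 0.192, and NC-mimic replicate 2 and mimic replicate 1 by 0.117. Where only 1 library was replicate 3, the values lay between -0.278 and -0.200. So the values set replicate 3 apart, and do not show that replicates 1 and 2 are paired. The replicate numbers of 22Rv1 were used as pairs on this basis only. The reported fits have no block, and the block was an alternative. The study does not state whether its own fits had one. In LNCaP the correlations of the same number were 0.0206, 0.00535 and 0.188, and between the lines 0.00768, 0.0242 and 0.105. These were not taken as pairs.

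The 10 genes and the lists were chosen with earlier results of these data known. All 10 genes are named, and of each list the called genes, at most the 3 highest and 3 lowest. Some genes of the lists are not reported here and were left out of their counts. Gene positions, the coding run and 3′UTRs are from the GENCODE annotation of hg38, and promoter windows from RefSeq.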

Additional observations from a re-analysis of the deposited data

How the results depend on the processing

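The number of the 10 genes called was 0 with the mimic in LNCaP, in 22Rv1 and in the interaction, under every alternative run. For the lines, other settings gave between 4 (limma) and 8 called genes beside 6. Leaving out 1 library gave between 3 (without LNCaP NC-mimic replicate 1) and 8 (without 22Rv1 NC-mimic replicate 3), and by the thresholds of the study on edgeR estimates in LNCaP between 0 and 1 (BAK1, without LNCaP NC-mimic replicate 2). Over all genes, the line fits called 8985 of 16559 with limma, 8453 of 18028 without LNCaP NC-mimic replicate 1 and 12117 of 18304 without 22Rv1 NC-mimic replicate 3. With the replicate block, 5 genes differed between the lines, since BIK (-0.68, adjusted p = 0.0743, edgeR) was lost, and the block changed no other call. The LNCaP count was 0 with the replicate block, as were the 22Rv1 and interaction counts.

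Signs that turned belonged to genes that did not pass. In LNCaP with the mimic, BCL2L1 was at -0.0049 without the low-count filter and at -0.0055 with limma on log2(TPM + 1), which also put BCL2L11 at 0.15, BID at 0.0016 and BMF at 0.031. Leaving out 1 LNCaP library gave -0.16 to 0.011 for BCL2, -0.058 to 0.042 for BCL2L1, -0.060 to 0.076 for MCL1, -0.029 to 0.16 for BAX, -0.29 to 0.038 for BAK1 and -0.058 to 0.014 for BMF. In 22Rv1 without both replicate 3 libraries, BCL2 was at -0.0050, BCL2L1 at -0.018, BAX at -0.16, BID at -0.082 and BMF at -0.016. Leaving out 1 library of 22Rv1 gave -0.21 to 0.24 for BCL2, -0.052 to 0.23 for BCL2L1, -0.13 to 0.21 for BAX, -0.055 to 0.26 for BID, -0.27 to 0.092 for BIK and -0.73 to 0.92 for BMF. Between the lines BMF was at 0.20 in the mimic libraries, and at -0.79 to 0.19 when 1 NC-mimic library was left out. The causes were not tested. Values on the log2(TPM + 1) scale understate changes of low genes. Depth limits BIK, BID and BCL2 most, with as few as 72 counts for BIK and BID in 22Rv1 and 90 for BCL2 in LNCaP.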

Other observations

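The length that RSEM assigned to a gene, a mean over its transcripts weighted by their estimated abundance, was listed for each library. It enters TPM but not the expected counts that edgeR tested. Among the 10 genes it was constant for BIK (951 bases, 1 transcript) and ranged from 1370 to 2019 bases for BID, from 3203 to 4620 bases for BMF and from 3579 to 4772 bases for BCL2L11, a ratio of longest to shortest of 1.47, 1.44 and 1.33. For BAK1 the ratio was 1.01. The TPM of BID, BMF and BCL2L11 therefore holds a factor of this size that their counts do not. Their mix of transcripts was not analysed here.

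BBC3, which encodes the BH3-only protein PUMA, was at 103.36 TPM in the 22Rv1 piR-4447944 mimic library that stood apart, and at 24.14 to 33.47 TPM in the other 22Rv1 libraries. DDIT3, which encodes the stress factor CHOP, was at 514.62 TPM in that library and at 270.3 TPM in 22Rv1 NC-mimic replicate 3, against 105.74 to 115.91 TPM in the other 22Rv1 libraries. BMF was highest in the same 2 libraries, at 42.44 and 28.11 TPM. These genes are among those named for the lines, and the pattern by library was noticed after their values were seen.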
